A study of Mus musculus with 18 samples.

Results

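The interval from 12 h to 24 h in uninduced embryoid bodies, the earliest step of the uninduced time course, is described here from 6 of the 18 arrays of the study: the 3 arrays whose titles name the 24 h culture without doxycycline against the 3 whose titles name the 12 h culture without doxycycline. Embryoid bodies are free-floating clumps of embryonic stem cells that differentiate once the factor holding them as stem cells, LIF, is withdrawn. All groups came from the mouse line A2lox-Flag Msgn1 (strain 129P2, formerly 129/Ola), in which doxycycline turns on a Flag-tagged copy of Msgn1, a transcription factor of the presomitic mesoderm. The line was kept with LIF on mitomycin-treated embryonic fibroblasts, differentiated for 2 days, moved to low-attachment dishes, and given 1 µg/ml doxycycline (induced) or none (uninduced), with RNA taken 12, 24 and 48 h later. The uninduced groups at 12, 24 and 48 h thus carry the same silent cassette as the induced groups at the same times, and no group had doxycycline without the cassette. Each of the 6 groups has 3 arrays that the labels call biological replicates. All values come from 1 line.

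In the mouse embryo the epiblast leaves a naive state, in which factors such as Zfp42 and Nr0b1 are active, for a primed state marked by Fgf5. The primitive streak then forms where Nodal, Wnt, BMP and FGF signals meet, and its cells turn on Eomes, Mixl1, Mesp1 and Brachyury on the way to mesoderm and endoderm. Stem cells in embryoid bodies pass through similar stages, without the spatial order of an embryo.

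The labels' states were checked first. Msgn1 gave signals of 16.8, 25.2 and 15.0 in the uninduced arrays at 12 h and 12.0, 16.3 and 5.22 at 24 h, against 70.4, 64.7 and 76.8 and 56.7, 52.9 and 67.3 in the induced arrays of those times, so every uninduced array lay below every induced one. Stem cell and epiblast genes were bright at both times: Pou5f1 gave 4282, 4092 and 4162 at 12 h and 4744, 4546 and 5006 at 24 h. Dnmt3b, a DNA methyltransferase of the epiblast, gave 8389, 8619 and 6927 and 6678, 6895 and 6888. Brachyury (T) had no probe set matched to a single gene and is not analysed here. The median signal of the arrays was 19.3, 20.6 and 19.4 in the earlier group and 22.1, 21.8 and 19.8 in the later (2-sided exact permutation test, p = 0.2; the smallest p that 3 against 3 arrays allow is 0.1). The 3' to 5' signal ratio of the Actb control probe sets, a sign of RNA quality, was 1.80 ± 0.0938 at 12 h and 1.74 ± 0.186 at 24 h (SD, n = 3 each; exact permutation p = 0.6). The array of 24 h replicate 3 stood apart: it correlated at 0.990 to 0.991 with its own group and at up to 0.992 with a 12 h array, while 24 h replicates 1 and 2 correlated at 0.994 with each other and at up to 0.991 with a 12 h array. Its Actb ratio was 1.95, against 1.62 and 1.64 in the other 24 h arrays and 1.78, 1.71 and 1.90 in the 12 h arrays. The part of this difference in the results was not tested, and a result is also given without that array where this changed its call. On an axis that runs from 0 at the mean of the 12 h arrays to 1 at the mean of the 48 h arrays, the 24 h arrays lay at 0.27, 0.30 and 0.25.

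Between 12 h and 24 h, 574 of 14273 tested genes changed (limma, adjusted p under 0.05), which is 4.02%: 314 rose (2.20%) and 260 fell (1.82%). A change is the later minus the earlier mean of log2(signal + 32), printed with the fit's standard error. A fold is that difference turned back to a ratio. Changes and folds are thus smaller than those of the signal itself, most of all in dim genes. In bulk RNA fewer cells of a type cannot be told apart from less RNA per cell. Most changes were small. The median was 0.44 among the rises and -0.41 among the falls, 49 genes rose and 33 fell at least 1.5-fold, and 2 genes, Rpl39 and Fst, rose at least 2-fold. The largest fall on this scale was that of Lgals3, 1.90-fold. The 3 arrays at 24 h all lay above the 3 at 12 h for 1829 genes (12.8%) and all below for 1283 genes (8.99%). Among these were 304 of the 314 called rises and 256 of the 260 called falls. Nearly every called gene was thus separated, so a lack of overlap adds little to a call. The median change of all genes was 0.021, and 7877 of the 14273 changes were above zero.

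The number of calls rested on single arrays. Without 24 h replicate 3 there were 914 calls, 474 higher (3.32%) and 440 lower (3.08%), of which 469 were shared with the 574; among the genes named in the text 7 gained a call and 8 lost one. Leaving out 12 h replicate 1, 12 h replicate 2, 24 h replicate 1 or 24 h replicate 2 gave 290, 189, 236 and 242 calls. Fitting the 6 arrays without the other groups gave 172 calls, 87 higher and 85 lower. Probe sets of 1 gene often differed in their call. Of the 40 called genes named here that had several probe sets, 18 had fewer called than not called when each probe set was tested: Amot, Cyp51, Foxh1, Gas1, Gnas, Prickle1, Slc25a12 and Tle4 (1 of 3), Fdft1, H2-K1, Nr5a2, Nrcam and Nsmf (1 of 4), H2-D1 (2 of 6), and Asns, Lamc1, Miat and Spred1 (0 of 2, 2, 2 and 7). In 0 of the 40 was a probe set called the other way.

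**Figure D1:**
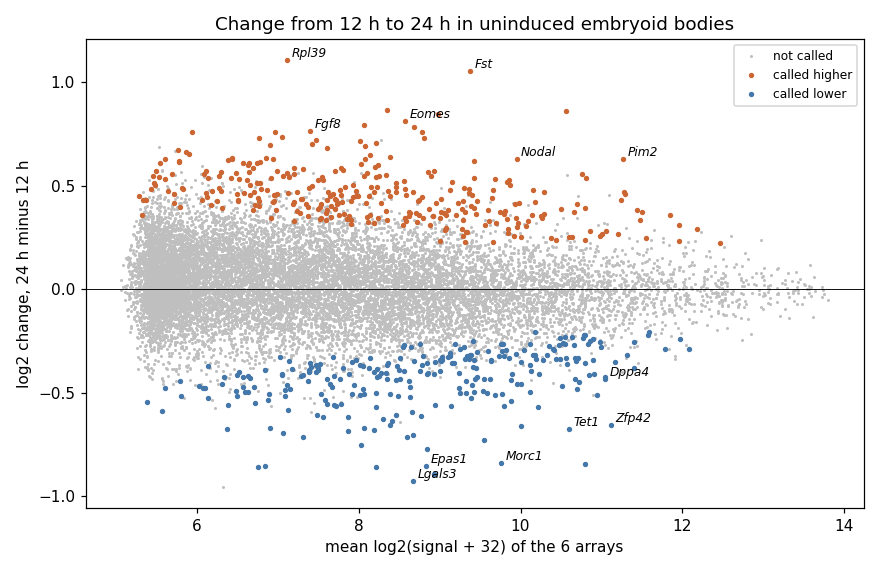
Change from 12 h to 24 h of each of the 14273 tested genes (vertical axis, log2 scale) against its mean level over the 6 arrays (horizontal axis, mean of log2(signal + 32)). The 314 called rises and 260 called falls are coloured, and most lie within 1 unit of 0.

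The 15 largest rises and the 15 largest falls were taken among called genes whose groups did not overlap, so their separation is part of the choice. The genes with the largest rises included secreted signals and transcription factors of gastrulation. Fst, which encodes follistatin, a secreted binder of activins, gave 395, 437 and 457 at 12 h and 891, 677 and 1304 at 24 h, a change of 1.05 ± 0.158 (2.07-fold; limma adjusted p = 0.000897). Eomes, a T-box factor of the streak, gave 247, 247 and 269.8 and 427, 369 and 658, a change of 0.81 ± 0.164 (adjusted p = 0.00682). For these genes 24 h replicate 3 was the highest of all 6 arrays. Without it the change was 0.81 for Fst and 0.58 for Eomes, and both remained called (adjusted p = 0.00152 and 0.022). Fgf8, a growth factor of the streak, gave 94.1, 94.5 and 103 and 156, 169 and 247, with replicate 3 again highest (0.76 ± 0.156; adjusted p = 0.00731; 0.59 without replicate 3). Wnt11, a Wnt ligand that acts in cell movement, gave 20.7, 21.1 and 5.67 and 56.4, 45.8 and 42.2 (0.76 ± 0.135; adjusted p = 0.00325). Foxa2, a forkhead factor of endoderm and node, gave 49.8, 45.7 and 63.5 and 111, 90.6 and 127 (0.73 ± 0.175; adjusted p = 0.0205).

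Of the other rises among the 15, Prtg, which encodes the immunoglobulin-family receptor protogenin, gave 244, 189.5 and 196 and 351, 366 and 521 (0.87). Podxl, a sialomucin of the apical surface, gave 264, 291 and 406 and 564, 604 and 473 (0.73), with replicate 3 the lowest 24 h array. The cell adhesion gene Nrcam changed by 0.76 and Gas1, a membrane protein that binds hedgehog ligands, by 0.72. The planar polarity gene Prickle1 gave 177, 179 and 162 and 344, 276 and 349.7 (0.79 ± 0.0929; adjusted p = 0.00013), by 1 of its 3 probe sets. Fndc3c1 (0.85), Nsmf (0.78), Prxl2a (0.76) and the long noncoding RNA Miat (0.74) complete the 15. Rpl39, a ribosomal protein gene, had the highest change of all, from 61.7, 73.7 and 52.99 to 120.5, 226 and 181 (1.11 ± 0.197; adjusted p = 0.00325). Ribosomal protein genes have near-identical copies in the genome, and the identifier of the Nsmf probe set marks possible matches to other transcripts, so these 2 values are uncertain as to gene. Among genes named below, the probe sets of Fdft1, Asns, Ndn, Sox17, Gfra2, Pgk1, Rrs1 and Odc1 carry the same mark, among others. The calls of 12 of these 15 genes held whichever array was left out. Those of Prtg, Foxa2 and Miat did not: their highest adjusted p was 0.0716 without 12 h replicate 2, 0.0947 without 12 h replicate 2 and 0.189 without 24 h replicate 1.

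**Figure D2:**
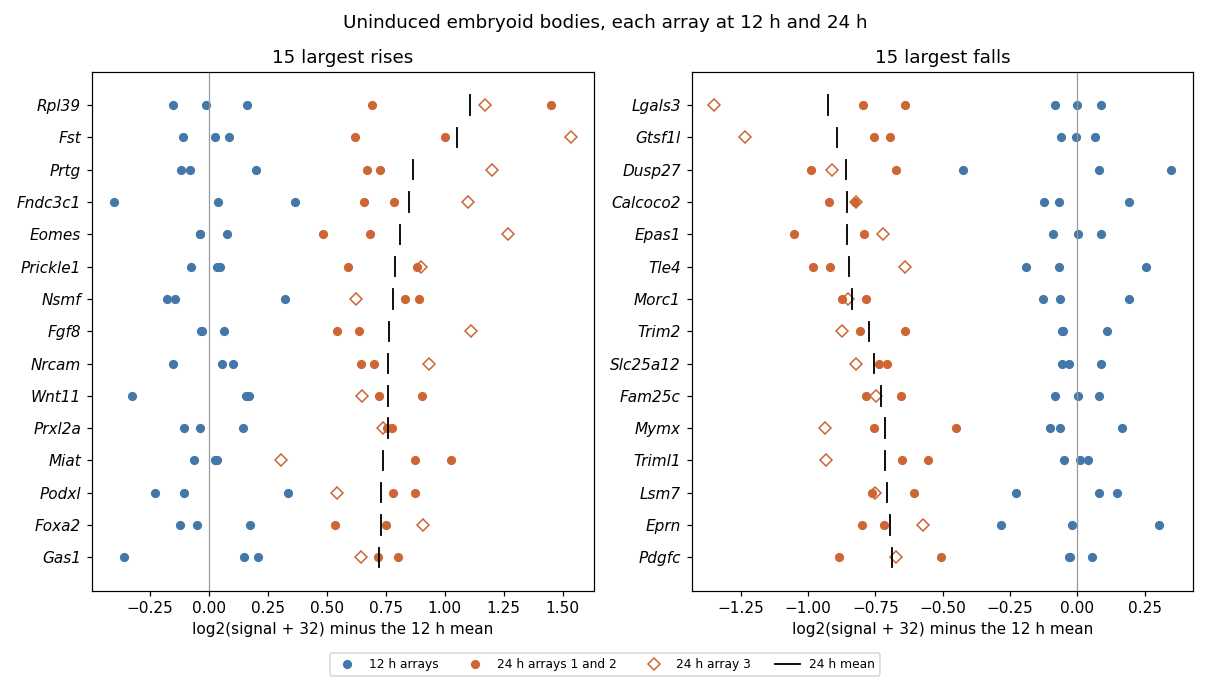
Values of the 6 uninduced arrays for the 15 largest rises (left) and the 15 largest falls (right), as log2(signal + 32) minus the mean of the 12 h arrays (horizontal axis). Filled points are arrays, the open diamond is 24 h replicate 3 and the bar is the 24 h mean. The genes were chosen for groups that do not overlap; the spread of the 24 h arrays differs between genes, and 24 h replicate 3 is the highest array for Fst and Eomes and the lowest for Lgals3.

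Among the falls, Lgals3, which encodes the sugar-binding protein galectin-3, gave 497, 564 and 528 at 12 h and 328, 291 and 188 at 24 h (-0.93 ± 0.150; limma adjusted p = 0.00176). Replicate 3 was the lowest 24 h array here, and the change was -0.72 without it. Epas1, a hypoxia-inducible transcription factor subunit, gave 581, 618 and 542 and 322, 263 and 339 (-0.85 ± 0.108; adjusted p = 0.000177), by 1 of 2 probe sets. Tle4, a Groucho-type corepressor, gave 2824, 2253 and 2067 and 1180.4, 1234 and 1502 (-0.85 ± 0.162; adjusted p = 0.00536), by 1 of 3 probe sets. Morc1, which is needed to silence transposons in male germ cells, gave 1080.3, 1295 and 1031 and 642, 601 and 611 (-0.84 ± 0.109; adjusted p = 0.000207).

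Further falls were those of Gtsf1l (-0.89), the phosphatase-like gene Dusp27 (-0.86), the autophagy receptor gene Calcoco2 (-0.86), Trim2 (-0.77), the mitochondrial aspartate and glutamate carrier gene Slc25a12 (-0.76), Fam25c (-0.73), Mymx (-0.71), Triml1 (-0.71), the RNA-processing gene Lsm7 (-0.71), Eprn (-0.70) and Pdgfc (-0.69). Pdgfc encodes a platelet-derived growth factor and gave 260.1, 259 and 277 and 178, 129 and 154. The Trim2 value comes from a probe set whose identifier marks possible cross-matches, though 3 of 5 Trim2 probe sets were called lower. All 15 calls except those of Dusp27 (adjusted p = 0.0797 without 12 h replicate 2) and Lsm7 (0.0737 without 12 h replicate 2) held whichever array was left out.

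Of 23 measured genes of naive pluripotency 6 fell (26.1%, against 4.02% called of all tested genes), 0 rose and 17 did not pass. The list's median change was -0.28 against 0.021 for all genes, and 2 of the 23 changes were above zero. Zfp42, the gene of the stem cell marker Rex1, gave 2778, 2893 and 2611 at 12 h and 1868, 1629 and 1729.7 at 24 h (-0.66 ± 0.0974; limma adjusted p = 0.000877). Nr0b1, an orphan nuclear receptor of the naive network, gave 1113, 1152 and 913 and 748, 672 and 686 (-0.57 ± 0.130; adjusted p = 0.0158), and the nuclear receptor gene Nr5a2 gave 219, 227 and 210.3 and 119, 147 and 149.7 (-0.56 ± 0.121; adjusted p = 0.0112). All 12 h arrays lay above all 24 h arrays in these 3 genes, as in 256 of all 260 called falls. Mylpf, a myosin light chain gene that served as a stem cell marker on this list, changed by -0.67 (adjusted p = 0.00307). The classical naive factors were less uniform. Tfcp2l1 gave 161, 225 and 150.2 and 131, 124 and 70.9, a change of -0.60 that missed the threshold (adjusted p = 0.0557). Klf2 (-0.22), Klf4 (-0.21), Esrrb (-0.18) and Dppa3 (-0.25) had adjusted p from 0.308 to 0.548. Nanog gave 1059, 1157 and 1103 and 1046, 1083 and 1294, a change of 0.04 ± 0.0806 with overlapping groups. The calls of Nr0b1 and Nr5a2 were lost with single arrays left out, with adjusted p up to 0.0882 without 12 h replicate 2 and 0.0745 without 24 h replicate 1.

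Core pluripotency genes, which stay on until later stages, had a median change of -0.098. Of 16 measured members 1 fell (6.2%, against 4.02% called of all tested genes). That fall was of Dppa4, a chromatin-associated stem cell gene, from 2430.5, 2492 and 2323 to 1897, 1802 and 1648 (-0.43 ± 0.0844; limma adjusted p = 0.00585). Sox2 gave 4316, 4132 and 4533 and 3589.7, 3624 and 3976 without overlap, and its change of -0.21 ± 0.0750 did not pass (adjusted p = 0.114). Pou5f1, whose arrays are given above, was 0.19 higher at 24 h (adjusted p = 0.103), and Utf1 gave 1496, 1389 and 1493 and 1828, 1706 and 1251.

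Genes of DNA methylation and its removal gave changes below zero in every measured member. Of 10 genes 3 fell (30.0%, against 4.02% called of all tested genes). The median change was -0.19 and 0 of the 10 changes were above zero, or 1 of 10 after quantile normalization. Tet1, which oxidises methylated cytosine, gave 2104, 1973 and 1710.2 at 12 h and 1067, 1061 and 1492 at 24 h (-0.68 ± 0.159; limma adjusted p = 0.0187), with 24 h replicate 3 closest to the 12 h arrays and a change of -0.83 without it. Tet2, another enzyme of that family, gave 197, 191 and 179 and 123, 144 and 106 (-0.51 ± 0.0985; adjusted p = 0.00574). Gadd45a, a stress gene linked to demethylation, gave 571, 522 and 479 and 421, 380.5 and 406 (-0.35 ± 0.0859). The methyltransferase genes did not pass: Dnmt3a changed by -0.05, Dnmt3b by -0.22 and the cofactor gene Dnmt3l by -0.38, with adjusted p of 0.792, 0.404 and 0.185. The call of Tet1 was lost with single arrays left out (adjusted p up to 0.0977 without 24 h replicate 1), as was that of Gadd45a (0.118 without 12 h replicate 1).

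Germline-type genes, many of which DNA methylation silences in later embryos, gave falls as well. Among 20 measured genes 4 fell (20.0%, against 4.02% called of all tested genes), with a median of -0.15 and 4 changes above zero. Tex19.1, a gene of germ cells and placenta, gave 425, 480.5 and 294 and 233, 213 and 281 (-0.64 ± 0.124; limma adjusted p = 0.00585). Tdrd12, which takes part in the piRNA pathway, gave 316, 344 and 326 and 200.5, 223 and 212 (-0.57 ± 0.106; adjusted p = 0.00486). Rhox5, a homeobox gene of the X chromosome, gave 1082, 1131 and 976 and 834, 771 and 769 (-0.41 ± 0.0908), and Stk31 gave 65.0, 77.9 and 79.1 and 36.9, 53.8 and 55.5 (-0.40 ± 0.104). No 24 h array reached a 12 h array in any of the 4, as in 256 of all 260 called falls. Tex19.1 (0.0508 without 12 h replicate 2), Rhox5 (0.0779 without 12 h replicate 2) and Stk31 (0.193 without 24 h replicate 1) had these adjusted p when the array that mattered most was left out.

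Among 22 measured primed epiblast genes 4 rose (18.2%, against 4.02% called of all tested genes), 0 fell and 18 did not pass. The list's median change was 0.051, and 11 of the 22 changes were above zero, against 7877 of 14273 for all genes. Besides Fst, the rises were those of the kinase gene Pim2 from 2049.7, 1732 and 2102 to 3237, 2987 and 2894 (0.63 ± 0.123; limma adjusted p = 0.00589), the tight junction gene Cldn6 from 368, 333 and 409.8 to 621, 623 and 464 (0.57 ± 0.129; adjusted p = 0.0142) and Fgf5. Fgf5, the growth factor that marks primed epiblast, gave 820.4, 639 and 764 and 1072, 961 and 1217 (0.53 ± 0.136; adjusted p = 0.0317), with no overlap. Without 24 h replicate 3 the Fgf5 change was 0.44 (adjusted p = 0.075), and the highest adjusted p was 0.153 without 12 h replicate 2; for Cldn6 it was 0.0841 without 12 h replicate 2. Otx2, a homeobox factor of the primed state, gave 2830.0, 2364 and 2868 and 2622, 2806 and 2570.0, and Pou3f1 1968, 1923 and 1997 and 1568, 1882 and 1898, changes of -0.01 and -0.14 that did not pass.

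The primitive streak list held 21 measured members, of which 4 rose, 1 fell and 16 did not pass (23.8% called, against 4.02% of all tested genes). Its median change was 0.22, and 17 of the 21 changes were above zero, against 7877 of 14273 for all genes. Beside Eomes and Fgf8, Amot, a regulator of Hippo signalling, rose from 508, 571 and 533 to 827, 748 and 804 (0.54 ± 0.103; limma adjusted p = 0.00551) and Foxh1, the DNA-binding partner of Smad proteins in Nodal signalling, from 338, 319 and 376 to 458, 417 and 439 (0.32 ± 0.0823; adjusted p = 0.0302). Fgf4, a growth factor of stem cells and streak, fell from 978, 1038 and 1018 to 782, 744 and 591 (-0.51 ± 0.0944; adjusted p = 0.00458). The call of Foxh1 was lost with single arrays left out (up to 0.139 without 12 h replicate 2).

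Other genes of the streak list did not pass. Mixl1 gave 68.3, 100.2 and 63.6 at 12 h and 86.2, 65.2 and 143 at 24 h, a change of 0.22 ± 0.188 (limma adjusted p = 0.578) that was -0.01 without 24 h replicate 3. Mesp1, a factor of nascent mesoderm, gave 22.3, 43.2 and 26.7 and 43.1, 24.4 and 43.7. Lhx1 gave 35.8, 83.1 and 80.0 and 66.2, 76.2 and 91.3, and Evx1 10.2, 31.0 and 23.4 and 34.0, 23.5 and 37.1, all with overlapping groups. Gsc, a homeobox gene of the organiser, gave 19.2, 13.6 and 30.3 and 34.7, 56.3 and 41.8, separated but not called (0.53 ± 0.171; adjusted p = 0.0878). Wnt8a (0.38), Sp5 (0.42) and Wnt3 (0.18) were not called either, and Cdx2 gave -0.09.

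Endoderm and node genes gave 2 rises among 16 measured members (12.5%, against 4.02% called of all tested genes), with a median of 0.22. The rises were those of Foxa2, given above, and of Trh, which encodes the precursor of thyrotropin-releasing hormone, from 2084, 2170.2 and 1916 to 2909.6, 2479 and 2977 (0.43 ± 0.110; limma adjusted p = 0.0302). Sox17, a factor of definitive endoderm, gave 29.4, 48.3 and 51.9 and 78.3, 68.8 and 70.2 without overlap (0.49 ± 0.149; adjusted p = 0.069). Trh lost its call with single arrays left out, 24 h replicate 3 among them (adjusted p = 0.063 without it, at most 0.115 without 24 h replicate 1).

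The next interval, from 24 h to 48 h, shares the 3 arrays of 24 h with this one, so the 2 sets of changes are only set side by side. It held 3507 calls (24.6%), 1830 higher (12.8%) and 1677 lower (11.7%). Mixl1 reached 1458, 1711 and 1179 at 48 h and Mesp1 721, 829 and 601, changes of 3.54 and 3.44 against 0.22 and 0.14 in the earlier step. Eomes, at 2871, 2848 and 2619, changed by 2.48 against 0.81, and Foxa2, at 844, 749 and 724, by 2.51 against 0.73. Zfp42, at 617, 537 and 692, changed by -1.46 against -0.66. Nodal differed from these: it was 0.63 higher at 24 h than at 12 h, and its next change was -0.21 (limma adjusted p = 0.198). List medians for the later step were 1.38 for the streak list, 1.28 for endoderm and node, and -0.59 for naive pluripotency, with -0.014 for all genes.

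**Figure D3:**
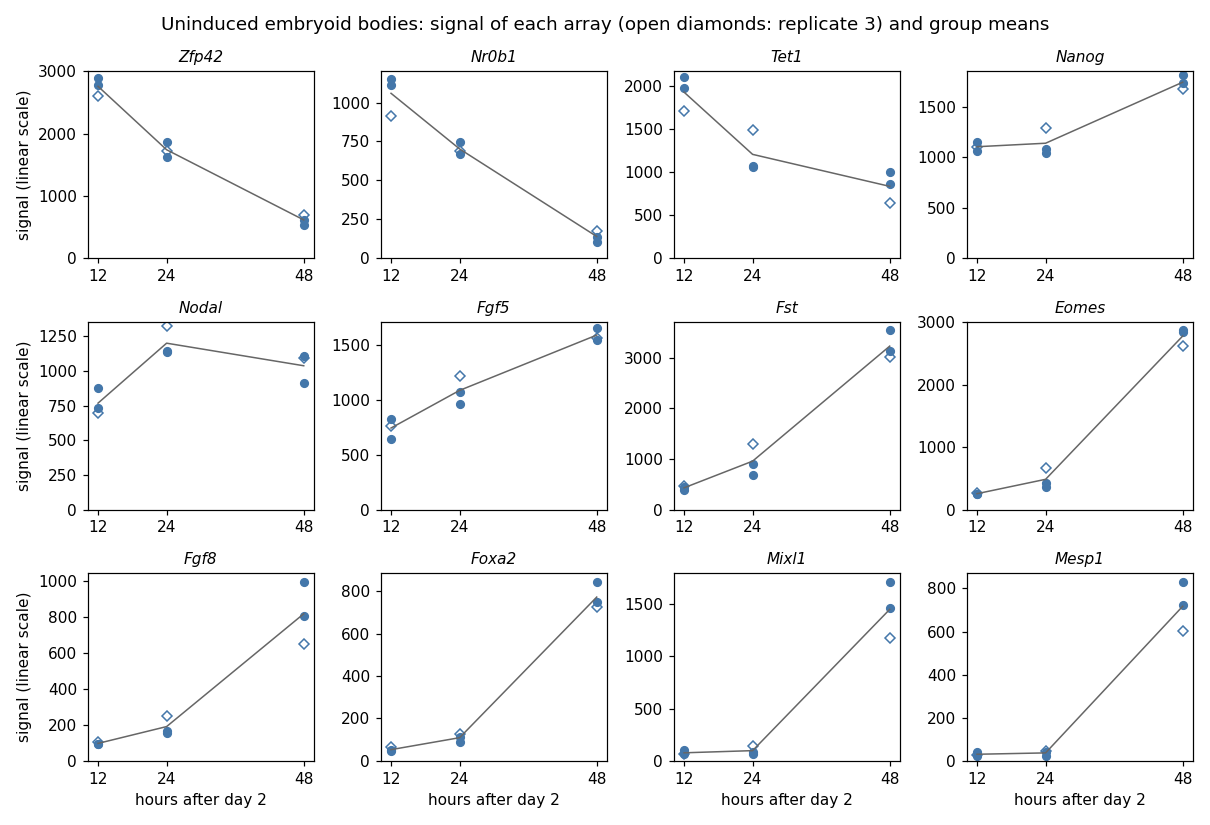
Signal (linear scale, vertical axis) of 12 genes in each uninduced array at 12, 24 and 48 h after day 2 (horizontal axis), with lines through group means and open diamonds for replicate 3. Zfp42, Nr0b1 and Tet1 fall from 12 h on, Nodal is highest at 24 h, and Mixl1 and Mesp1 are near their 12 h level at 24 h.

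Nodal signalling, which patterns the epiblast and induces the streak, had 2 rises and 1 fall among 20 measured members. That is 15.0% called, against 4.02% of all tested genes, and the list's median was 0.065. Nodal itself gave 733, 874 and 698 at 12 h and 1137, 1144 and 1322 at 24 h (0.63 ± 0.112; limma adjusted p = 0.00325), by both of its probe sets, with no overlap and a change of 0.56 without 24 h replicate 3. Foxh1 was the other rise. Lefty2, a secreted inhibitor of Nodal, fell from 1209.9, 1206 and 1346 to 924, 897 and 1013 (-0.40 ± 0.101; adjusted p = 0.0301), and this call was lost with single arrays left out (up to 0.117 without 24 h replicate 2). Lefty1, a related inhibitor, gave 1292, 1382 and 1528 and 1471, 1396 and 1454, and the inhibitor gene Cer1 38.2, 48.8 and 50.2 and 108, 55.9 and 73.5, neither past the threshold.

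BMP pathway genes gave 3 rises among 21 measured members (14.3%, against 4.02% called of all tested genes), with a median of 0.20. Fst was the largest. Smad6, an intracellular inhibitor, gave 28.2, 23.2 and 29.6 and 43.1, 55.5 and 49.7 (0.46 ± 0.123; limma adjusted p = 0.0372), and Id3, a direct target, 581, 519.8 and 482 and 729, 617 and 735 (0.37 ± 0.0986; adjusted p = 0.0353). Without 24 h replicate 3 the calls of Smad6 and Id3 were lost (adjusted p = 0.0524 and 0.0697), which left 1 rise on the list, and the highest values were 0.145 without 24 h replicate 2 and 0.138 without 24 h replicate 1. Smad6 lost its call whichever of the 6 arrays was left out. The ligand gene Bmp4 gave 104, 112 and 81.3 and 73.0, 54.4 and 77.2, a change of -0.39 ± 0.232 that did not pass, and Id1 and Id2 changed by 0.18 and 0.22.

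Wnt ligands, receptors and antagonists gave 3 rises among 27 measured members (11.1%, against 4.02% called of all tested genes): Wnt11, Dkk1 and Fzd2. The list's median was 0.11. Dkk1, a secreted Wnt antagonist and itself a Wnt target, gave 31.2, 37.5 and 27.5 at 12 h and 66.5, 52.6 and 65.4 at 24 h (0.54 ± 0.133; limma adjusted p = 0.0234). The receptor gene Fzd2 gave 219.6, 183 and 223 and 289.6, 297 and 299 (0.45 ± 0.0931; adjusted p = 0.00804). The groups did not overlap in either gene, as in 304 of all 314 called rises. Both calls were lost with single arrays left out (limma adjusted p up to 0.0977 without 24 h replicate 1 and 0.0687 without 12 h replicate 2). Wnt5a gave -0.16, Wnt5b 0.26, Rspo3 0.26, Sfrp1 -0.12 and Sfrp2 0.15, none called. Among 18 measured targets of Wnt signalling Dkk1 was the only call (5.6%, against 4.02% of all tested genes), and the median was 0.078. Axin2 gave 72.7, 121 and 96.9 and 107, 98.6 and 150.4, Lef1 changed by -0.10 and Nkd1 by 0.09.

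The start regions of Dkk1 and Wnt11 are shown because these 2 called Wnt pathway genes hold the letters of the TCF/LEF core, through which Wnt signals reach genes. Each sequence is the RefSeq window on GRCm38.p6 from 250 bases before to 50 bases after the transcript start, written on the gene's strand, and capitals mark CTTTGA or, for a match on the other strand, TCAAAG. Dkk1 is at chr19:30549447-30549746 on the minus strand and Wnt11, for the first of its 2 windows, at chr7:98834862-98835161 on the plus strand.
Dkk1: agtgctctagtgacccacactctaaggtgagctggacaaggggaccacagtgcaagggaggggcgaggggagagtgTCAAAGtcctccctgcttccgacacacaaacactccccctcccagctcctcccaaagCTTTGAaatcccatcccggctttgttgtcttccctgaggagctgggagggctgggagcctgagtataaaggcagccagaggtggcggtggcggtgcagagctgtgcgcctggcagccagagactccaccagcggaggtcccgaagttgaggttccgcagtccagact
Wnt11: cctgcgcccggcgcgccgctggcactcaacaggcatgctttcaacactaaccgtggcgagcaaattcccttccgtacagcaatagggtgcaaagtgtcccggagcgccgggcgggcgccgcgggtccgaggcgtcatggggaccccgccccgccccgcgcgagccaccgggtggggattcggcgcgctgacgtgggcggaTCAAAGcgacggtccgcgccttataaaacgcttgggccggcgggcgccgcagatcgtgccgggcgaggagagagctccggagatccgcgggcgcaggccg
The capitals stand at positions 77 to 82 and 134 to 139 for Dkk1 and 201 to 206 for Wnt11, counted from 1 at the left end. The core was in 12.6% of the windows of called rises and 12.3% of all tested genes with a window (32 of 253 and 1410 of 11450). A match describes letters only.

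FGF pathway genes moved in both directions, with 2 rises and 2 falls among 22 measured members (18.2% called, against 4.02% of all tested genes). The list's median was 0.074. The rises were of the ligands Fgf8 and Fgf5, and the falls of the ligand Fgf4 and of Spred1, an inhibitor of the pathway, from 394, 416 and 420.4 to 315, 356 and 325 (-0.28 ± 0.0799; limma adjusted p = 0.0498). Every array left out ended the Spred1 call (up to 0.183 without 24 h replicate 1). Readouts of FGF signalling did not pass: Dusp6 changed by -0.14, Spry4 by 0.01, Etv4 by -0.05 and Etv5 by 0.20. Without 24 h replicate 3 the change of Etv5, a transcription factor gene, was 0.32 and was called (adjusted p = 0.048). The ligand Fgf15 changed by 0.03 and the receptors Fgfr1 and Fgfr2 by 0.21 and 0.09.

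In the Notch pathway 1 of 24 measured members was called (4.2%, against 4.02% of all tested genes), and the median was 0.062. Rbpj, the DNA-binding effector of Notch, fell from 857, 867 and 917 to 609, 581 and 649.7 (-0.50 ± 0.0761; limma adjusted p = 0.000989), by 2 of 3 probe sets, and kept the call without any single array. The ligands Dll1 and Dll3, the receptor Notch1 and the target Hes1 changed by -0.01, 0.07, -0.25 and -0.05, none called.

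The lists of later mesoderm and blood held 1 call, a share near or below the 4.02% of all tested genes. Of 21 measured presomitic mesoderm genes 1 rose (4.8%): Cyp26a1, which degrades retinoic acid, gave 33.8, 74.3 and 54.6 at 12 h and 112, 73.3 and 102 at 24 h (0.58 ± 0.157; limma adjusted p = 0.0395). Its groups overlapped, and the call was lost after quantile normalization and without 24 h replicate 3 (adjusted p = 0.0669; up to 0.194 without 12 h replicate 1). It was also the 1 call among 13 retinoic acid genes (7.7%), where Aldh1a2, which makes retinoic acid, stayed dim at 7.22, 22.6 and 4.35 and 3.80, 14.7 and 9.61. Tbx6, a presomitic factor, gave 8.90, 13.8 and 12.5 and 8.48, 14.9 and 15.7. Of 19 cardiac and lateral mesoderm genes limma called 0 (4 higher and 0 lower at an unadjusted p under 0.05), with 34.2, 50.3 and 38.8 and 64.1, 53.1 and 57.2 for Gata6, 2.99, 5.59 and 16.7 and 5.77, 12.1 and 23.5 for Hand1 and changes of 0.05 for Gata4 and 0.30 for Mef2c. Of 20 blood and endothelial genes it called 0 (5 higher and 0 lower unadjusted), with changes of 0.34 for the receptor Kdr, -0.08 for Etv2, -0.04 for Tal1, -0.08 for Lmo2 and 0.47 for Erg.

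Among 18 measured Hox genes 0 were called (1 higher and 0 lower at an unadjusted p under 0.05 in limma). Hoxa7 gave 5.51, 8.32 and 6.84 at 12 h and 45.0, 33.0 and 6.50 at 24 h; without 24 h replicate 3 its change of 0.57 became 0.86 and was called (adjusted p = 0.00397). Hoxb1 changed by 0.04 and Hoxd13 by -0.23. Of 17 neural genes 1 rose (5.9%, against 4.02% called of all tested genes). This was the zinc finger gene Zfp521, from 36.3, 29.5 and 47.9 to 77.6, 71.2 and 77.5 (0.63 ± 0.115; adjusted p = 0.00403). Pax6, a factor of neural tissue, gave 46.4, 55.2 and 45.9 and 32.2, 24.8 and 41.4 (-0.33, not called; -0.42 without 24 h replicate 3, adjusted p = 0.0376), Sox3 changed by 0.11 and Hesx1 by -0.07.

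Epithelial adhesion genes gave 3 rises and 1 fall among 26 measured members (15.4% called, against 4.02% of all tested genes), with a median of 0.14. A pair of tight junction genes and a gene of tricellular junctions rose: Cldn6, given above, Cldn7 from 725, 609.5 and 876 to 1112, 1219 and 869.8 (0.52 ± 0.117; limma adjusted p = 0.0151) and Lsr from 246, 245 and 262 to 341, 338 and 328 (0.38 ± 0.0725; adjusted p = 0.00551). Cldn7 groups overlapped through 24 h replicate 3, and its change was 0.65 without that array. Jup, which encodes the junction protein plakoglobin, fell from 193, 230.4 and 202 to 155, 127.7 and 142 (-0.47 ± 0.0968; adjusted p = 0.00746). The calls of Cldn7 (up to 0.105 without 12 h replicate 2) and Jup (up to 0.061 without 12 h replicate 2) were lost with single arrays left out. Cdh1 changed by -0.07, Epcam by 0.02, Krt8 by 0.13 and Krt18 by 0.28, none called. Without 24 h replicate 3 Krt18, a keratin of simple epithelia, changed by 0.44 and was called (adjusted p = 0.0241). On the list of epithelial to mesenchymal transition, limma called 0 of 20 genes (1 higher and 1 lower at an unadjusted p under 0.05). Its members Snai1 (0.20), Cdh2 (0.15), Vim (0.06), Zeb1 (-0.26) and Fn1 (-0.45) did not pass; Fn1 gave 1634, 1402 and 1617 and 1080.0, 1019 and 1285, was called without 24 h replicate 3 (adjusted p = 0.0478) and in the 6 arrays fitted alone.

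Cholesterol synthesis genes gave changes above zero in every measured member, also after quantile normalization. Of 19 members 4 rose (21.1%, against 4.02% called of all tested genes). The median was 0.23, against 0.021 for all genes. Without 24 h replicate 3 the count of rises was 7. Insig1, a sterol-regulated brake on the pathway, gave 819, 842 and 934 at 12 h and 1009.8, 1089 and 1165 at 24 h (0.32 ± 0.0717; limma adjusted p = 0.0142). The enzyme genes Msmo1, from 925, 912 and 956 to 1157, 1212 and 1109.9 (0.31 ± 0.0665; adjusted p = 0.0111), Cyp51, from 508, 588 and 582 to 679, 699 and 671 (0.28 ± 0.0688; adjusted p = 0.0263) and Fdft1, from 1593, 1591 and 1652 to 1912, 2030.1 and 1782 (0.24 ± 0.0623; adjusted p = 0.0352), also rose. In all 4 every 24 h array lay above every 12 h array, as in 304 of all 314 called rises. Each call was lost with single arrays left out, with adjusted p up to 0.0756, 0.0648, 0.141 and 0.17. Hmgcs1 (0.23), Sqle (0.21) and Idi1 (0.18) did not pass.

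The start regions of 3 of these sterol genes are shown because the members' changes shared a sign and each holds the CCAAT box, the letters bound by NF-Y, a factor that acts with sterol-responsive SREBP proteins. The windows are RefSeq GRCm38.p6 and run as above, and capitals mark CCAAT or, for the other strand, ATTGG. Insig1 is at chr5:28071162-28071461 on the plus strand, Msmo1 at chr8:64733529-64733828 and Cyp51 at chr5:4104648-4104947, both on the minus strand.
Insig1: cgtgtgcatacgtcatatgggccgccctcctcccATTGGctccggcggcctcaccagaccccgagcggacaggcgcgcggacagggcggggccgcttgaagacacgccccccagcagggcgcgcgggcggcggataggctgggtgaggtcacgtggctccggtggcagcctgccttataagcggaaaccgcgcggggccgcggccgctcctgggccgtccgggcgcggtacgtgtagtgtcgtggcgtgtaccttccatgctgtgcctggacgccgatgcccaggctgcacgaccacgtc
Msmo1: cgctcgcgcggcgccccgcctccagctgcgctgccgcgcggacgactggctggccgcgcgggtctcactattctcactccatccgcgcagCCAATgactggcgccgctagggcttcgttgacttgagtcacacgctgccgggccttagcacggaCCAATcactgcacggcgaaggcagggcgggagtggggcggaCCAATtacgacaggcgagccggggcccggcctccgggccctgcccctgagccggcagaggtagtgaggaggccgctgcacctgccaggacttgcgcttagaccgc
Cyp51: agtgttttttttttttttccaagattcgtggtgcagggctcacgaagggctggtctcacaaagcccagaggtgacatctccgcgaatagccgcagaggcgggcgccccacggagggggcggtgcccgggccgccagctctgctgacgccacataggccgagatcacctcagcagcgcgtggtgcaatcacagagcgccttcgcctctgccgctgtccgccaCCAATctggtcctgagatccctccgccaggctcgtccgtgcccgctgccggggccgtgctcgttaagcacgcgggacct
The box stands at positions 35 to 39 in Insig1, 91 to 95, 155 to 159 and 196 to 200 in Msmo1 and 222 to 226 in Cyp51. It is a common element: 34.0% of the windows of called rises and 38.5% of those of all tested genes held it on either strand (86 of 253 and 4411 of 11450). TCACACC, a T-box motif, was in 3.2% and 3.4%, AATCCAC, a FOXH1-like site, in 0.8% and 1.8%, and TATAAA in 9.5% and 7.7%. None of the 5 motifs contains another. Median CpG count was 20 per window in both sets. A window was found for 79.2% of the called falls, against 80.6% of the called rises and 80.2% of all tested genes. The falls' coverage is just under the 80% asked of a set, so their shares are given as values only. Their windows held CTTTGA in 13.1%, CCAAT in 44.2%, TCACACC in 3.4%, AATCCAC in 1.9% and TATAAA in 8.7%.

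Of 26 measured glycolysis and hypoxia genes 1 rose (3.8%, against 4.02% called of all tested genes). This was the pyruvate kinase gene Pkm, from 3229, 2943 and 3530.0 to 4341, 4462 and 3659 (0.36 ± 0.0733; limma adjusted p = 0.00746; up to 0.0669 without 12 h replicate 2). The median was 0.20, and 24 h replicate 3 was the lowest 24 h array for Pkm, Slc2a3 (3993, 3187 and 4758 and 4738, 5321 and 3874) and Pgk1 (6341, 5267 and 6885 and 6746, 7266 and 5836); without it 3 members rose. Slc2a1 (0.26), Ldha (0.24) and Hk2 (-0.15) did not pass. Of 23 genes on the respiration list 0 were called by limma (0 higher and 2 lower at an unadjusted p under 0.05), and Idh3a changed by -0.21.

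Amino acid supply and stress genes gave 4 falls among 20 measured members (20.0%, against 4.02% called of all tested genes), with a median of -0.15. Cth, which makes cysteine, gave 1407, 1464 and 1387 and 925, 892 and 1027 (-0.57 ± 0.0753; limma adjusted p = 0.000246). Psph, the last enzyme of serine synthesis, gave 759.6, 759 and 763 and 476, 565 and 594 (-0.46 ± 0.0932; adjusted p = 0.0068). The amino acid transporter gene Slc7a5 changed by -0.29 and the asparagine synthetase gene Asns by -0.24. None of the 4 overlapped between groups, as in 256 of all 260 called falls. Cth kept the call without any single array. The others reached a limma adjusted p of 0.0532 without 24 h replicate 1, 0.124 without 24 h replicate 1 and 0.149 without 12 h replicate 2. Asns lost its call whichever of the 6 arrays was left out (limma adjusted p at least 0.0723), and gave 0.119 without 24 h replicate 3. Trib3 (-0.35), Ddit3 (0.31) and Slc7a11 (0.02) did not pass.

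Of 23 S phase genes 1 fell (4.3%, against 4.02% called of all tested genes), the replication licensing gene Cdc6, from 676, 662 and 659 to 563, 536 and 531 (-0.28 ± 0.0693; limma adjusted p = 0.0262), and of 21 genes of G2 and mitosis 1 fell (4.8%), the spindle gene Nusap1, from 1531, 1405 and 1674 to 1072, 1139 and 1429 (-0.34 ± 0.0950; adjusted p = 0.0469), with overlapping groups. Of 18 p53 targets 1 rose and 1 fell (11.1% in all): Cdkn1a, an inhibitor of cell cycle kinases, gave 394, 475 and 444 and 583, 504 and 639.9 (0.37 ± 0.0968; adjusted p = 0.0353) and the receptor gene Eda2r 233, 276 and 212 and 179, 145 and 194 (-0.41 ± 0.115; adjusted p = 0.046). All 4 calls were lost with single arrays left out, up to 0.0907, 0.224, 0.155 and 0.216, and that of Cdkn1a without 24 h replicate 3 among them (0.0899). Limma called 0 of 18 immediate early genes (0 higher and 2 lower at an unadjusted p under 0.05), 0 of 20 ribosome biogenesis genes (0 and 2) and 0 of 8 histone genes (1 and 0). Fos changed by 0.16, Egr1 by -0.38, Rrs1 by -0.33 (-0.44 and called without 24 h replicate 3, adjusted p = 0.023) and Odc1 by -0.19. Ier3 differed most among replicates, at 348, 123 and 678 and 179, 524 and 129.

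Antigen presentation and interferon genes gave 4 rises and 1 fall among 18 measured members (27.8% called, against 4.02% of all tested genes), with a median of 0.11. The class I major histocompatibility genes H2-D1, from 236, 193 and 282 to 397, 419 and 275 (0.55 ± 0.131; limma adjusted p = 0.0196), and H2-K1, from 466, 379.5 and 496 to 661, 666 and 569 (0.48 ± 0.0940; adjusted p = 0.00614), rose, as did Bst2, an antiviral membrane protein gene, from 719, 518 and 742 to 857, 943 and 972 (0.48 ± 0.104). H2-D1 overlapped through 24 h replicate 3, and class I genes are similar enough in sequence that their probe sets may share signal. The fourth rise was of Ly6e, and the fall was of Ifitm1, a membrane protein gene, from 3009, 2949.7 and 3259 to 2727, 2366 and 2013 (-0.38 ± 0.0771; adjusted p = 0.00695). The calls of H2-D1, H2-K1 and Bst2 were lost with single arrays left out (up to 0.122, 0.0531 and 0.0784).

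Imprinted genes, of which a single parental copy is active, gave 2 rises among 19 measured members (10.5%, against 4.02% called of all tested genes). The list's median was 0.11. Ndn gave 457, 419 and 458 and 641, 633 and 675 (0.52 ± 0.0726; limma adjusted p = 0.000473), by 4 of 5 probe sets, and Gnas, which encodes a G protein subunit, 2518, 2056 and 2690.0 and 3262, 3193 and 2996 (0.38 ± 0.0754; adjusted p = 0.00598). Both calls held without any single array. Igf2 changed by 0.39 and Mest by -0.24, not called.

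Markers of other cells that such a culture may hold were read beside these results. For the fibroblast feeders, limma called 0 of 24 measured markers (1 higher and 3 lower at an unadjusted p under 0.05). The summed signal of all 25 markers with a probe set was 3910.9 to 4053.6 at 12 h and 3702.5 to 4087.4 at 24 h. The defining marker Col1a1 was dim at 25.2, 27.2 and 28.4 and 18.6, 16.7 and 25.9, while Col1a2 gave 153, 127.7 and 149 and 164, 131 and 138, Thy1 139.6, 135 and 153 and 166, 162 and 149.8, and Dcn 75.01, 68.1 and 67.3 and 97.3, 56.2 and 71.5. Cav1 and Cd44 changed by -0.43 and -0.40.

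For extraembryonic endoderm 3 of 19 measured markers fell (15.8%, against 4.02% called of all tested genes). All are genes shared with other tissues: Rhox5, given above, and the basement membrane genes Lamc1, from 224, 214 and 224 to 149, 131 and 189 (-0.43 ± 0.121; limma adjusted p = 0.0464; up to 0.214 without 24 h replicate 2), and Nid2, from 784, 671 and 804 to 587, 605 and 614 (-0.30 ± 0.0766; adjusted p = 0.0287; up to 0.115 without 12 h replicate 1). The summed signal of the 22 markers with a probe set was 7306.9 to 7520.6 at 12 h and 6549.7 to 7072.9 at 24 h. Its defining marker Afp was near 0 (4.19, 6.92 and 6.17 and 1.04, 1.54 and 7.08), Gata6 and Sox7 changed by 0.31 and 0.37, and Dab2 by 0.22. For trophoblast, Eomes was the 1 call among 14 markers (7.1%, against 4.02% of all tested genes), and the list's median change was 0.056. The sum that follows includes Eomes, whose mean signal was 254 at 12 h and 485 at 24 h. The summed signal of the 16 trophoblast markers with a probe set was 1915.0 to 2028.5 at 12 h and 2364.7 to 2386.8 at 24 h, while the defining markers Cdx2 (16.5, 35.7 and 23.9 and 22.3, 20.4 and 22.0), Elf5 (4.46, 7.73 and 8.91 and 1.30, 21.2 and 7.36) and Krt7 (18.4, 13.9 and 42.7 and 28.6, 34.5 and 30.9) were dim at both times. The part of these cells in the results was not tested.

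**Figure D4:**
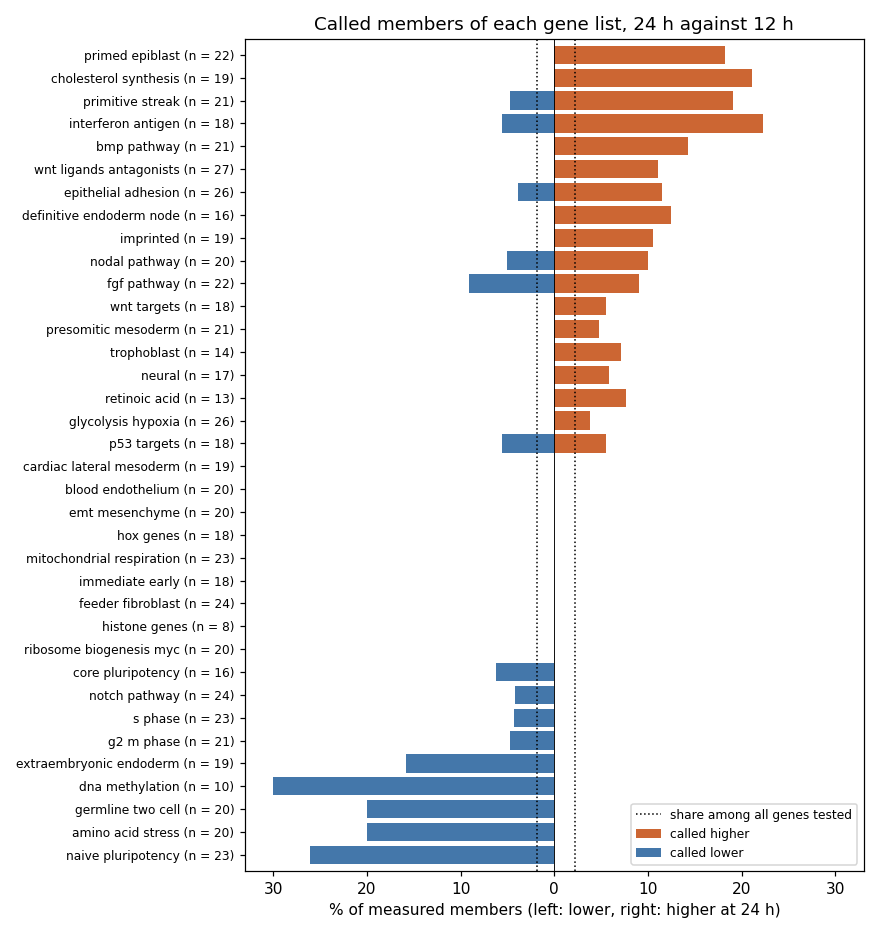
Share of measured members called lower (left) or higher (right) at 24 h for each of the 36 gene lists, in % (horizontal axis, n measured members beside each name), with dotted lines at the 1.82% and 2.20% of all tested genes. Among lists with at least 3 calls, the naive pluripotency, DNA methylation, germline, amino acid and extraembryonic endoderm lists hold only falls. The epiblast, BMP, Wnt ligand and cholesterol synthesis lists hold only rises. The streak, Nodal, FGF, epithelial adhesion and interferon lists hold both.

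The same interval was measured in induced embryoid bodies on 6 other arrays. There 1986 genes were called (13.9%), 1222 higher (8.56%) and 764 lower (5.35%). Of the 314 rises in uninduced embryoid bodies, 297 had the same sign in induced ones, 211 were called higher there and 1, Serpinf2, was called lower. Of the 260 falls, 251 had the same sign, 183 were called lower and 0 higher. Over all tested genes 55.8% of the induced changes were above zero. The median induced change was 0.40 for the rises and -0.37 for the falls, against 0.44 and -0.41 in uninduced embryoid bodies. The deviations of the 24 h replicates 3 of the uninduced and induced groups from their group means correlated at 0.44 across genes, so those 2 arrays share a difference that the labels do not name.

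The difference between the 2 changes was tested directly. It was called for 15 genes (0.105%), 12 with a higher change in induced embryoid bodies (0.0841%) and 3 with a lower one (0.0210%). For Aplnr, the apelin receptor gene of mesoderm, uninduced arrays gave 47.2, 91.4 and 59.0 at 12 h and 64.1, 63.0 and 105 at 24 h, whereas induced ones gave 75.7, 82.9 and 102 and 475, 666 and 869, a difference of 2.36 ± 0.273 (limma adjusted p = 0.000292). For Igf2, a growth factor gene, the uninduced values were 91.8, 83.8 and 135 and 131, 149 and 152 and the induced ones 88.0, 83.1 and 76.5 and 368, 465 and 498 (1.65 ± 0.200; adjusted p = 0.000311). In these 2 genes the induced groups separated and the uninduced groups overlapped. Prickle1 went the other way: it rose in uninduced embryoid bodies, while induced ones gave 851, 815 and 857 and 832, 894 and 834, already above the uninduced arrays at 12 h (-0.77 ± 0.131; adjusted p = 0.0121). Of the 314 rises, 3 had a called difference: Cyp26a1, Prickle1 and Serpinf2.

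**Figure D5:**
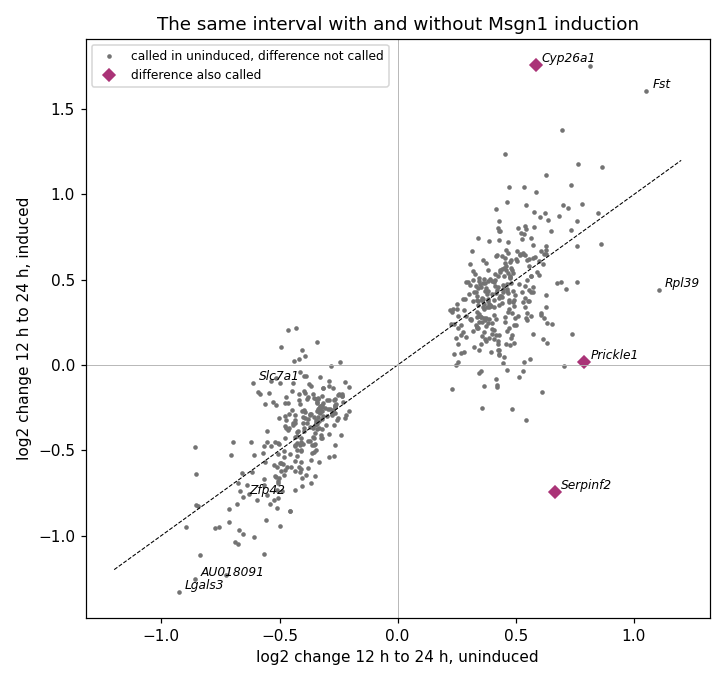
Change from 12 h to 24 h in induced embryoid bodies (vertical axis) against that in uninduced ones (horizontal axis), both on the log2 scale, for the 574 called genes. The dashed line marks equal change, and diamonds mark the 3 genes whose difference was called.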

How the data were processed

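Total RNA (100 ng per sample, RNA integrity above 9, biotin label by 3' in vitro transcription, per the labels' protocols) was measured on 18 single-channel arrays. The authors deposited intensity values on a linear scale for 45101 probe sets, from 0.0187 to 16866. GCOS made them, per the submitters' processing notes; which signal algorithm it ran is not given in the sources used here, nor is its target for scaling. The deposited intensity had a 2% trimmed mean of 150 on every array, so no further normalization was added.

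Of the probe sets, 64 controls were left out, and 34945 matched 1 gene (34741 by Entrez identifier), 932 several and 9160 none. A probe set was kept if a group mean of log2(signal + 32) was at or above a signal of 13.3, the 40th percentile over probe sets and arrays. This kept 25881 with 1 gene, and the one with the highest mean stood for each of 14273 genes, 6674 of which had several. Limma 3.58.1 in R 4.3.3 was fitted to all 18 arrays, with 1 mean per group (12 residual degrees of freedom), an intensity trend in the variance and 2-sided tests with Benjamini-Hochberg adjustment across genes. Calls needed an adjusted p under 0.05. In simulated data each gene had its mean over the 18 arrays and its residual spread, with independent noise. There the 12 h to 24 h test over 14273 genes recovered 69% of 100 genes changed by 0.5 and 97% of 100 changed by 1 (log2), with 6 false calls. The simulation held no deviation that genes of an array share, so it does not give the error rate of the real arrays. P-values rest on a spread pooled over the 6 groups of 3 arrays, all of 1 cell line, and moderated across genes. The number of arrays limits the precision. Single quality measures were compared by exact permutation tests.

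The 36 gene lists held 716 genes, of which 58 had no probe set matched to 1 gene, 36 were too dim and 622 were tested. Named genes are the 15 largest rises and falls among called genes whose groups do not overlap, the key genes of each list, up to 4 called members of a list (or 2 with values if none was called), and the 5 largest called differences in each direction; clone names were passed over. The single members named beyond this rule were chosen after their values were seen. The comparison, the lists and the naming rule were chosen with earlier results of these data known. As a check for pairing, deviations from group means were correlated, which gave -0.12, -0.083 and -0.13 for the same number at 12 h and 24 h, so they were not treated as pairs. Other settings were quantile normalization, other filters, offsets and variance models, averaging over a gene's probe sets, probe set level, the arrays of a comparison alone, a replicate block, and each array left out. Promoter windows came from RefSeq GRCm38.p6. Python 3.11.15 with matplotlib 3.10.9 drew the figures.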

Additional observations from a re-analysis of the deposited data

Results flagged for a closer look

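For 11 named genes the change from 12 h to 24 h differed between induced and uninduced embryoid bodies by limma's test of that difference (induced minus uninduced, log2 scale, adjusted over 14273 genes). It was higher in induced embryoid bodies for Aplnr (2.36; adjusted p = 0.000292), Igf2 (1.65; 0.000311), Gfra2, a co-receptor for neurturin (1.33; 0.00108), Greb1l (1.28; 0.0158), Pdgfra, a receptor of early mesoderm (1.26; 0.00568), Cyp26a1 (1.17; 0.0295), Tal1, a blood factor (1.01; 0.00696), and Nrarp, a Notch feedback gene (1.00; 0.00308). It was lower for Serpinf2 (-1.41; 0.0158), Neurod1 (-1.05; 0.0153) and Prickle1 (-0.77; 0.0121).

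Of these genes only Cyp26a1, Serpinf2 and Prickle1 were also called in uninduced embryoid bodies. Pdgfra gave 30.5, 57.1 and 34.0 and 33.4, 33.5 and 47.1 in uninduced and 78.6, 70.1 and 64.5 and 179, 201 and 248 in induced arrays at 12 h and 24 h. Serpinf2, the gene of alpha-2-antiplasmin, gave 5.55, 38.1 and 5.45 and 46.6, 41.8 and 35.6 in uninduced arrays, where 12 h replicate 2 overlapped the 24 h arrays, and 37.4, 40.1 and 38.9 and 4.66, 10.3 and 16.3 in induced ones; its uninduced call was lost with single arrays left out (adjusted p = 0.169 without 12 h replicate 1). Neurod1, a neurogenic factor, gave 204, 233 and 189 and 127, 129 and 193 in uninduced arrays and 562, 561 and 488 and 156, 173 and 193 in induced ones, both lower at 24 h, with the uninduced change not called (adjusted p = 0.0708). Without 24 h replicate 3 the uninduced Neurod1 change was -0.58 and was called (adjusted p = 0.00827).

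The called differences of Cyp26a1, Greb1l, Neurod1 and Serpinf2 were lost when single arrays were left out, with adjusted p up to 0.147, 0.0664, 0.0644 and 0.0632, and those of the other 7 held. Without both arrays numbered 3 at 24 h, Cyp26a1 and Prickle1 were no longer called (0.105 and 0.0637). With a replicate block Cyp26a1 was not called (0.0674).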

How the results depend on the processing

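The count of 574 calls between 12 h and 24 h ranged from 189 to 914 when each array was left out, was 172 in a fit of the 6 arrays alone and was 1254 without both arrays numbered 3 at 24 h, a setting chosen after seeing the data. Under quantile normalization, other filters, offsets and variance models, averages over a gene's probe sets and probe set level it lay between 434 and 639. These counts do not share a total: the 639 came from 10885 genes at the 60th percentile filter. At probe set level 625 of 25881 probe sets were called. With arrays left out the counts ranged from 2648 to 3159 for 24 h to 48 h, from 1125 to 2110 for the induced interval and from 9 to 26 for the difference of the intervals. That difference gave 9 calls with averages over a gene's probe sets. Replicate numbers did not pair the 12 h and 24 h arrays, and a replicate block gave 481 calls, 262 higher and 219 lower. Deviations from group means in uninduced and induced arrays of the same number correlated at 0.20, 0.14 and 0.44 at 24 h. Across numbers 1 and 2 they correlated at 0.11 and 0.20. The deviations of the 3 arrays of a group add up to 0, so these values are not independent of the 0.44 for number 3. At 12 h those of the same number correlated at 0.010, 0.072 and -0.067. The block gave 14 calls for the difference of the intervals, against 15. Of the 84 called genes named, 0 changed sign under any setting run, and 33 of the 110 not called did. Calls pick changes far from 0 on these same arrays, so this contrast largely follows from the choice. Quantile normalization moved the median change of all genes from 0.021 to 0.0076.

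Of those 84 genes 41 kept the call whichever of the 6 arrays was left out and 43 did not. Fitting the 6 arrays alone ended the call of 32, averaging its probe sets 17, no variance trend 16, no filter 12, and the replicate block 8. Quantile normalization ended those of Smad6, Spred1, Cyp26a1, Lamc1, Eda2r and Asns, with adjusted p from 0.0507 to 0.0764. The offset of 32 makes changes understated, most in dim genes but also in genes with signals above 32. Brachyury was not measured by a probe set matched to 1 gene. The causes of these differences were not tested.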
